A study of Mus musculus with 8 samples.

Results

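The vascular endothelial growth factor (VEGF) family was followed in gut cells of mouse embryos through 9 genes: the ligands Vegfa, Vegfb, Vegfc and Pgf, the receptors Flt1, Kdr and Flt4, and the neuropilins Nrp1 and Nrp2. The genes were taken by symbol, out of 19057 genes that the array annotation named by a single symbol. They were covered by 22 probes of 45281, of which 10 probes from 7 genes were detected on at least 4 of the 8 arrays. None of these 7 genes passed the test between the genotypes. The smallest p was that of Nrp1, which still missed the threshold after adjustment. The signal of its brightest probe was 1.39-fold higher in the Bapx1 null samples, with no overlap between genotypes after normalization. Another kept Nrp1 probe, detected on all 8 arrays, differed by -0.32 on the log2 scale with overlapping genotypes. The mean of the 3 kept probes differed by 0.19.

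RNA came from cells of dissected guts at E12.5 (embryonic day, counted from mating) that carried enhanced green fluorescent protein (EGFP) in the Bapx1 locus, and fluorescence-activated cell sorting selected the EGFP-positive ones. The 4 Bapx1 null samples were homozygous for an allele (Bapx1 tm4.Tlu) with EGFP placed directly behind the start codon, which knocked Bapx1 out. The 4 wildtype samples carried an allele (Bapx1 tm2.Tlu) with EGFP behind an internal ribosome entry site, downstream of an intact coding region, and the study writes this genotype with a single targeted allele. As written there, the number of EGFP alleles differed along with the genotype, while the sample labels do not give that number for wildtype. Both lines were on a C57BL/6J;129 background. In both groups EGFP was driven by the Bapx1 promoter, so the sort selected cells by activity of the locus under study. The methods call the samples biological replicates, and the sources used here do not say whether embryos were pooled within a sample.

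VEGF ligands are secreted proteins that act through receptor tyrosine kinases. Vegfa, Vegfb and Pgf bind Flt1, Vegfa also binds Kdr, which carries most of the signal for growth and permeability of blood vessels, and Vegfc binds Flt4, the receptor needed for lymphatic vessels. The neuropilins are co-receptors that bind VEGF ligands and also the secreted semaphorins that steer axons and vessels. In developing organs the ligands are made mainly by mesenchyme and epithelium, while Flt1, Kdr and Flt4 mark endothelium, and the neuropilins occur in endothelium, neurons and mesenchyme.

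Each array was an Illumina MouseWG-6 v2 BeadChip, read as 1 fluorescence intensity per probe. Values below are background corrected, quantile normalized log2 intensities unless raw intensity is named, and they are listed in the order of replicates 1 to 4. A difference is the mean of Bapx1 null minus that of wildtype on this scale. A probe was called detected on an array when its detection p was under 0.01. The Bapx1 null arrays detected 31.0 to 38.5% of all probes and the wildtype arrays 38.2 to 40.0%, and the lowest value belonged to Bapx1 null replicate 2. Of 9784 genes tested with limma, 77 passed an adjusted p of 0.05 (0.787%), 52 higher (0.531%) and 25 lower (0.256%) in Bapx1 null. The median difference of all genes was 0.07. It was -0.45 with no normalization between arrays, -0.25 in the processed values of the authors and 1.02 after scaling by the median absolute deviation (MAD), the scaling that the methods describe. The signs of small differences therefore depended on the scaling, which is stated with each member. MAD scaling moved genes unequally, with Pgf (-0.39) and Flt1 (-0.58) close to the values given below.

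Of the 7 measured members 0 passed the threshold in the limma fit, against 0.787% of all genes tested (0.531% higher and 0.256% lower in Bapx1 null). At an unadjusted p under 0.05 there were 2 (Nrp1 and Vegfb), a share of 28.6% against 27% of all genes. The test of the methods, with an ordinary variance per gene, also passed 0. After normalization, every Bapx1 null array lay above every wildtype array for the same 2 genes, a share of 28.6%. Of all genes, 18.6% did not overlap in either direction on that scale (12.2% with Bapx1 null above). In raw intensity the genotypes overlapped for Nrp1 and for Vegfb. The share by unadjusted p thus stood close to that of all genes, and the share without overlap lay above it. Each rests on 2 of 7 genes.

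**Figure D1:**
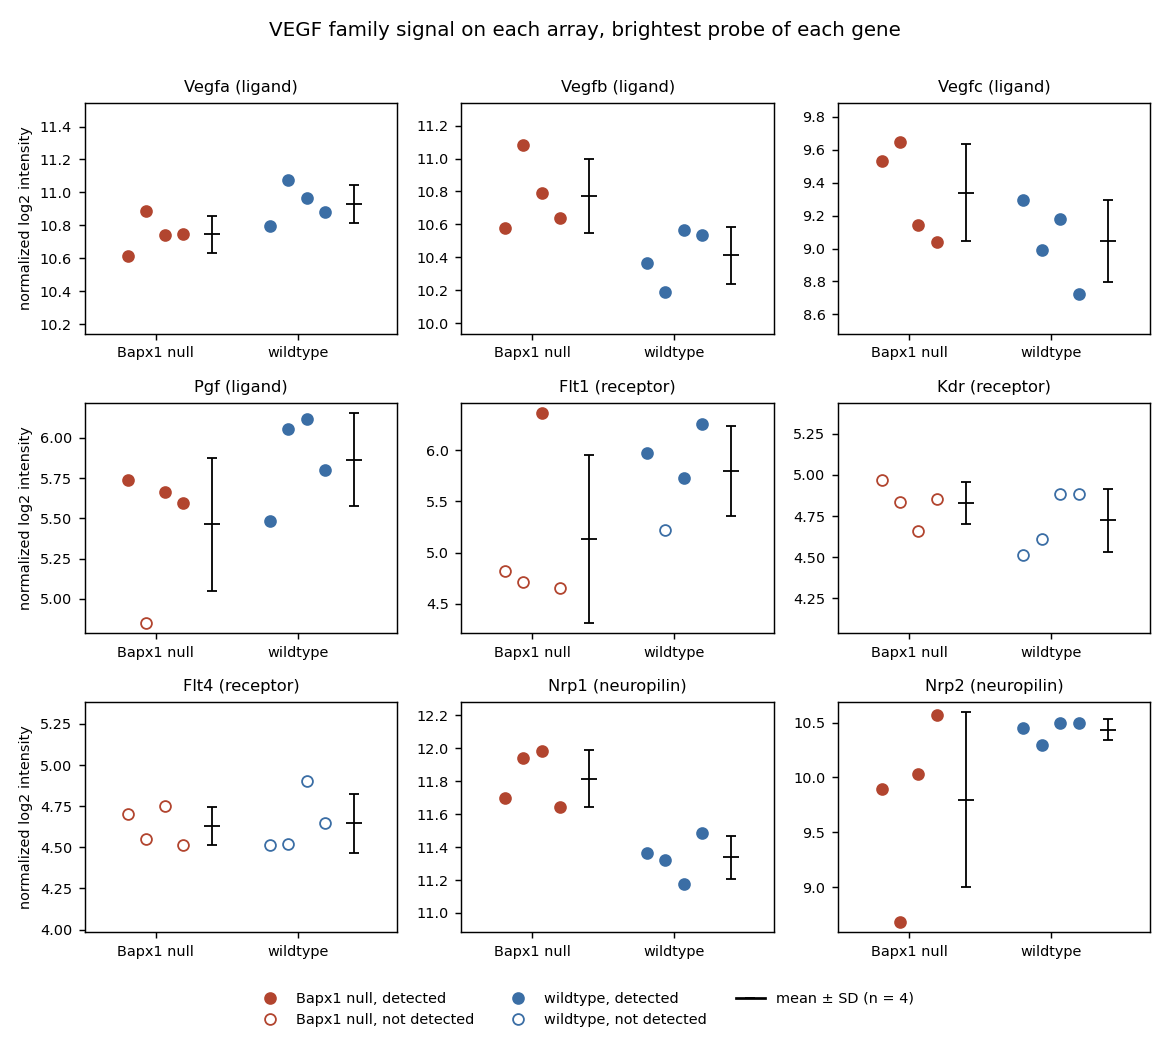
Normalized log2 intensity of the probe standing for each VEGF family gene on the 4 Bapx1 null arrays (left in each panel) and the 4 wildtype arrays (right). Filled points were detected, open points were not, points run from replicate 1 to 4, and bars are mean ± SD (n = 4). The genotypes are separate for Vegfb and Nrp1, and Bapx1 null replicate 2 is the lowest array for Pgf (4.85) and Nrp2 (8.68).

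Among the ligands, Vegfa, the principal growth factor for blood vessels, was detected on all 8 arrays with both of its kept probes. Its brighter probe (ILMN_2484527) read 10.61, 10.89, 10.74 and 10.75 in Bapx1 null and 10.80, 11.07, 10.97 and 10.88 in wildtype. The groups overlapped, and their means were 10.75 ± 0.11 and 10.93 ± 0.12 (SD, n = 4 each). The difference of -0.18 (SE 0.13) had an adjusted p of 0.343 with limma and a 95% interval of -0.47 to 0.10, and it was positive (1.77) only under MAD scaling. The second probe (ILMN_3121255) gave 7.53, 7.99, 7.31 and 7.59 in Bapx1 null and 7.63, 7.98, 7.80 and 7.61 in wildtype, a difference of -0.15. The 2 probes thus moved by like amounts, and their log2 ratio differed by -0.04 between genotypes. Another probe (ILMN_3045723) was detected on no array.

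Vegfb, a ligand of Flt1, read 10.58, 11.08, 10.79 and 10.64 in Bapx1 null and 10.36, 10.19, 10.56 and 10.53 in wildtype. All Bapx1 null arrays lay above all wildtype arrays, although the lowest Bapx1 null array (10.58) and the highest wildtype array (10.56) were only just apart. In raw intensity the genotypes overlapped, at 1147.8 to 1900.9 in Bapx1 null and 1352.9 to 1883.3 in wildtype. The processed values of the authors overlapped as well. The means were 10.77 ± 0.23 and 10.41 ± 0.17 (SD, n = 4 each), and the difference of 0.36 (SE 0.16, 95% interval 0.01 to 0.71) had an adjusted p of 0.177 with limma. Before normalization between arrays the difference was -0.08, which is 0.37 above the median of all genes on that scale. Leaving out Bapx1 null replicates 2 and 3 together gave 0.20.

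Vegfc, the main ligand of Flt4, read 9.53, 9.65, 9.14 and 9.04 in Bapx1 null and 9.30, 8.99, 9.18 and 8.72 in wildtype. Bapx1 null replicates 1 and 2 were above every wildtype array, and replicates 3 and 4 lay within the wildtype range. The means were 9.34 ± 0.29 and 9.05 ± 0.25 (SD, n = 4 each). The difference of 0.29 (SE 0.19) had an adjusted p of 0.307 with limma, and it was negative without normalization (-0.26) and in the processed values (-0.11). It was 0.18 without wildtype replicate 4, 0.19 without Bapx1 null replicate 2 and 0.03 with the share of detected probes as a covariate.

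Pgf, placental growth factor, was dim. Its probe read 5.74, 4.85, 5.67 and 5.59 in Bapx1 null, detected on 3 of 4 arrays, and 5.48, 6.06, 6.12 and 5.80 in wildtype, detected on 4 of 4. The groups overlapped through wildtype replicate 1. The difference was -0.40 (SE 0.22), with means of 5.46 ± 0.41 and 5.86 ± 0.29 (SD, n = 4 each) and an adjusted p of 0.257 with limma. With the share of detected probes as a covariate it was -0.08, and with a replicate block added to that it was 0.09. Without Bapx1 null replicate 2, on which Pgf was not detected, the difference was -0.20. The lowest detected normalized value on that array was 6.27, against 5.44 to 5.64 on the other Bapx1 null arrays and 5.31 to 5.46 on the wildtype arrays, so dim genes reached the detection limit there first.

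**Figure D2:**
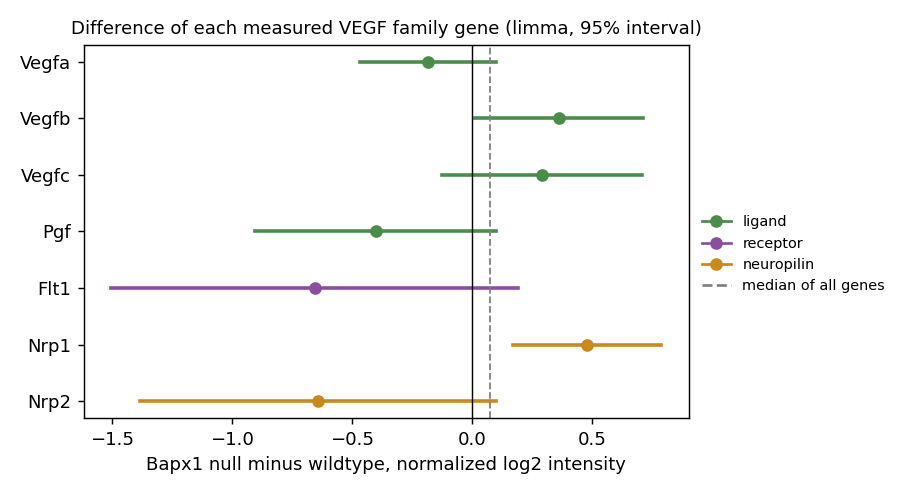
Difference in normalized log2 intensity, Bapx1 null minus wildtype, of the 7 measured VEGF family genes with 95% intervals from limma, in the order ligands, receptor, neuropilins; the dashed line marks the median of all genes (0.07). The intervals of Vegfb (0.01 to 0.71) and Nrp1 (0.17 to 0.79) lie above 0 and those of the other 5 include 0.

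The receptors were at or near background in the sorted cells. All 7 receptor probes together gave 1 kept probe, against 5 of 6 ligand probes and 4 of 9 neuropilin probes. Kdr, the main signalling receptor, was detected on 0 of 8 arrays with either of its 2 probes. The raw intensity of its brighter probe (ILMN_2665788) was 65.1, 54.3, 53.2 and 66.8 in Bapx1 null and 56.3, 58.6, 62.1 and 65.2 in wildtype. Flt4, the lymphatic receptor, was likewise detected on 0 of 8 arrays with any of 3 probes, and its brightest probe (ILMN_2611439) had raw intensities of 58.7, 49.8, 55.6 and 53.8 in Bapx1 null and 56.5, 54.5, 62.5 and 57.1 in wildtype. These values lay near the medians of all probes, which were 53.9 to 65.1 in Bapx1 null and 59.9 to 70.8 in wildtype. No difference in Kdr or Flt4 was detectable on these arrays. With no filter on dim probes, the fit gave 0.10 for Kdr (adjusted p = 0.65, limma) and -0.02 for Flt4 (adjusted p = 0.95, limma), both between values that were not above background.

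Flt1, which binds Vegfa, Vegfb and Pgf and also exists as a secreted decoy form, was the receptor with a measured probe (ILMN_1227926). It read 4.82, 4.71, 6.36 and 4.65 in Bapx1 null, detected on 1 of 4 arrays (replicate 3), and 5.97, 5.22, 5.73 and 6.25 in wildtype, detected on 3 of 4 (all but replicate 2). In raw intensity the same arrays gave 61.7, 52.7, 105.2 and 59.9 in Bapx1 null and 131.3, 79.2, 89.5 and 128.7 in wildtype. Bapx1 null replicates 1, 2 and 4 lay below every wildtype array, while replicate 3 lay above them all after normalization but below wildtype replicates 1 and 4 in raw intensity. The difference of -0.66 (SE 0.38) had an adjusted p of 0.268 with limma, between means of 5.14 ± 0.82 and 5.79 ± 0.44 (SD, n = 4 each). Without Bapx1 null replicate 3 it was -1.06 (adjusted p = 0.123, limma). The direction of Flt1 was the same under all 24 alternatives that gave a value. These alternatives draw on the same arrays, and the probe entered the test mainly through its detection in wildtype. Flt1 gave no value where detection on every array was required. The unchanged direction is therefore a description. In bulk RNA, fewer cells of a type and less RNA per cell cannot be told apart, and this applies to every gene described here. A second Flt1 probe (ILMN_2732721) was detected on no array.

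Each neuropilin had a probe detected on all 8 arrays. The difference of the probe that stood for the gene was above 0 for Nrp1 and below 0 for Nrp2. Nrp2 turned under MAD scaling and with the share of detected probes as a covariate, with or without a replicate block. Nrp1, the co-receptor for Vegfa and for semaphorin 3A, was measured by 3 kept probes, each detected on all 8 arrays. The probe that stood for the gene (ILMN_1237197) read 11.70, 11.94, 11.98 and 11.64 in Bapx1 null and 11.37, 11.32, 11.17 and 11.49 in wildtype. The genotypes did not overlap on this scale, and the means were 11.82 ± 0.17 and 11.34 ± 0.13 (SD, n = 4 each). In raw intensity they overlapped, at 2239.1 to 4264.8 in Bapx1 null and 2296.2 to 3605.6 in wildtype. The processed values of the authors overlapped as well. The difference of 0.48 (SE 0.14, 95% interval 0.17 to 0.79) had an unadjusted p of 0.00615, rank 556 of the 9784 genes, and an adjusted p of 0.108 with limma. Nrp1 remained higher in Bapx1 null under all 25 alternatives, from 0.12 without normalization to 2.86 under MAD scaling. Alternatives that changed only the filter, the features tested, the test or the replicate block reused the same probe and values. They returned the same 0.48, so their direction was fixed in advance. Only the alternative that averaged the 3 kept probes drew on the other Nrp1 probes (0.19). Nrp1 passed the threshold in 1 alternative, without Bapx1 null replicate 4 (0.54, adjusted p = 0.047, limma), a fit in which 1245 genes passed. With Bapx1 null replicates 2 and 3 left out together the difference was 0.33.

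The other Nrp1 probes did not all follow. A second probe annotated to the same RefSeq transcript, NM_008737 (ILMN_2669912), read 11.12, 11.13, 11.84 and 11.19 in Bapx1 null and 10.97, 10.86, 10.83 and 10.95 in wildtype. Its difference was 0.42, again with no overlap after normalization, while its raw intensities overlapped. The remaining probe (ILMN_1247094), annotated to the cDNA clone AK030358, read 9.57, 9.61, 10.34 and 10.07 in Bapx1 null and 10.07, 10.06, 10.24 and 10.51 in wildtype. Its groups overlapped, and its difference was -0.32 (adjusted p = 0.303 over all probes, limma). The mean of the 3 probes differed by 0.19.

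Within each array, the log2 ratio of the first Nrp1 probe to the AK030358 probe was 2.13, 2.33, 1.65 and 1.57 in Bapx1 null and 1.29, 1.26, 0.93 and 0.97 in wildtype. This pair was chosen after the values were seen, as the Nrp1 pair with the largest difference. Every Bapx1 null array had a higher ratio than every wildtype array, which held for 8.58% of the 5117 probe pairs of a gene in either direction. The means were 1.92 ± 0.37 and 1.11 ± 0.19 (SD, n = 4 each). The difference of 0.80 (SE 0.21) had an adjusted p of 0.30 over the 5117 pairs with limma, by which 0 pairs passed and 16.4% had an unadjusted p under 0.05. The ratio of the 2 probes of NM_008737 differed by 0.06, with overlapping groups. With the share of detected probes as a covariate the ratio to the AK030358 probe differed by 0.50 (adjusted p = 0.959, limma). An unequal change of the probes was therefore not shown by the test. Where the AK030358 probe lies in the gene was not analysed here.

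**Figure D3:**
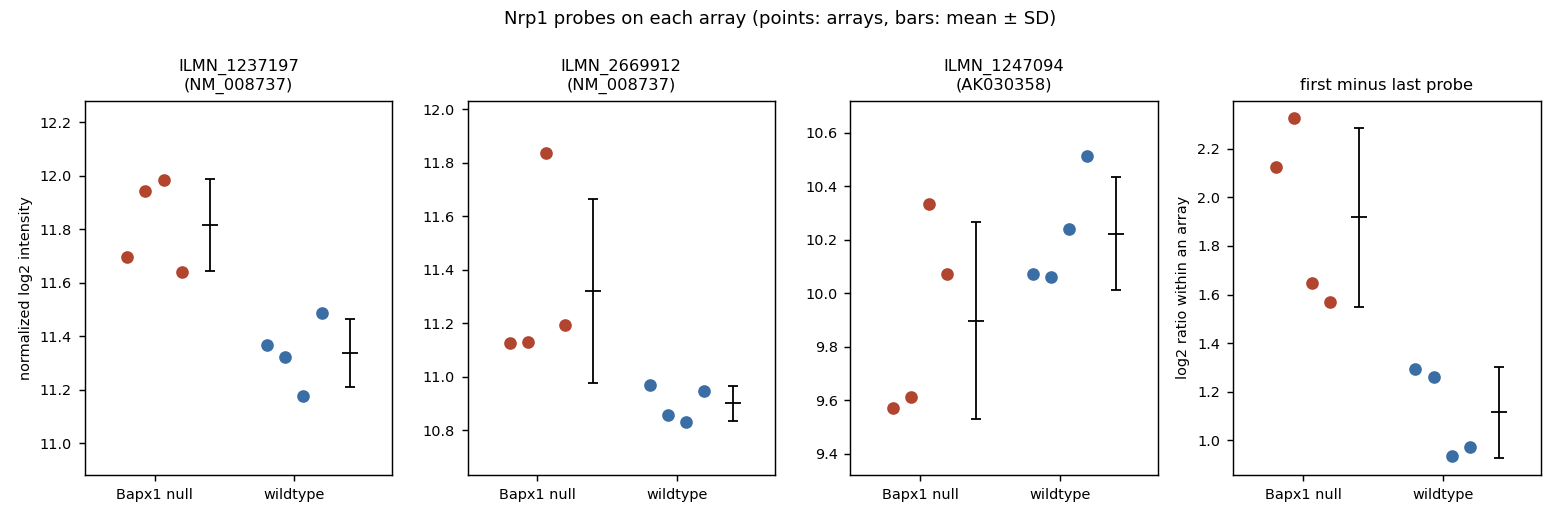
Normalized log2 intensity of the 3 kept Nrp1 probes on the 4 Bapx1 null and 4 wildtype arrays, with each probe's annotated transcript, and in the last panel the log2 ratio of the first to the last probe within an array (bars are mean ± SD, n = 4). Both probes of NM_008737 are higher in every Bapx1 null array (differences 0.48 and 0.42), whereas the AK030358 probe overlaps (-0.32). The ratio, of a pair chosen after the values were seen, is higher in every Bapx1 null array.

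Nrp2, the co-receptor for Vegfc and for semaphorin 3F, was measured by 1 kept probe of 6 (ILMN_2480957), which read 9.89, 8.68, 10.03 and 10.57 in Bapx1 null and 10.45, 10.30, 10.49 and 10.49 in wildtype. The wildtype arrays lay within a narrow range, and 3 Bapx1 null arrays lay below it while replicate 4 lay above it. The means were 9.79 ± 0.80 and 10.44 ± 0.09 (SD, n = 4 each), and the difference of -0.64 (SE 0.33) had an adjusted p of 0.229 with limma. It rested largely on Bapx1 null replicate 2, without which it was -0.27. With the share of detected probes as a covariate the difference was 0.21, and under MAD scaling it was 0.66. Of the other 5 probes, 3 were detected on no array and 2 on a single wildtype array. A further probe, annotated to both Nrp2 and Npn2, was detected on no array and was not used.

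**Figure D4:**
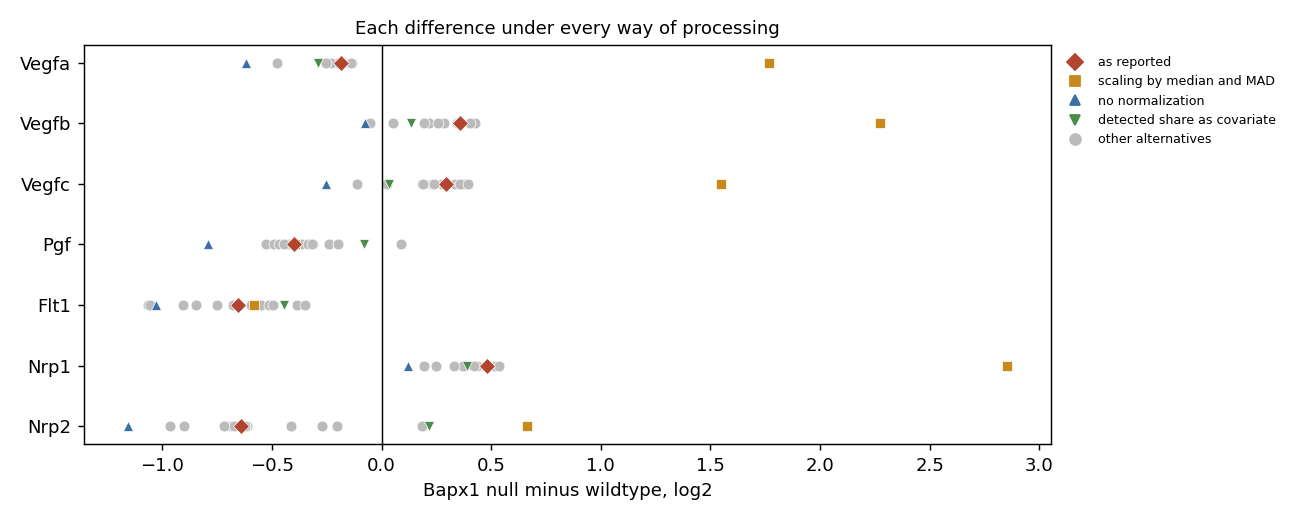
Difference of each measured VEGF family gene, Bapx1 null minus wildtype in log2 units of each setting, as reported and under the 25 alternatives. Nrp1 keeps its sign throughout, although alternatives of only the filter, the features tested, the test or the replicate block could not change it. Flt1 keeps its sign wherever it has a value, although its probe entered the test mainly through wildtype. Nrp2 turns positive with the detected share as a covariate (0.21) and under MAD scaling (0.66), which also turns Vegfa positive (1.77). Vegfb (-0.08) and Vegfc (-0.26) turn negative without normalization, and Vegfc also in the processed values (-0.11). With the covariate and a replicate block together, Vegfb (-0.055), Pgf (0.090) and Nrp2 (0.19) turn.

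For the 3 members whose values ranged over more than 1 on the log2 scale, the genes with the most similar pattern over the 8 arrays were found by the root mean square difference of centred values. They were 1700102P08Rik (0.136), Fmn2 (0.145) and Thap1 (0.156) for Pgf, and 1700067K01Rik (0.341), Cdh5 (0.352) and Hyou1 (0.353) for Flt1. For Nrp2 they were Hnrnpa2b1 (0.0756), Psmd6 (0.101) and Cnot1 (0.107). All 8 arrays entered each measure, and the array with the fewest detected probes, Bapx1 null replicate 2, was shared by all of these profiles. Of the Bapx1 null arrays, 1700102P08Rik was detected on 0 of 4, and 1700067K01Rik and Cdh5 each on 1 of 4. Their likeness to Pgf and Flt1 therefore includes values at background.

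Of the genes that relay VEGF signals inside the cell, 32 of 42 on the array were measured, 1 rose and 0 fell (0.531% and 0.256% of all genes), and their median difference was 0.03 against 0.07 for all genes. The gene that rose was Sphk1, the kinase that makes sphingosine-1-phosphate. It read 8.59, 9.12, 8.64 and 8.18 in Bapx1 null and 6.74, 7.11, 7.43 and 7.23 in wildtype, a difference of 1.50 (SE 0.22, adjusted p = 0.0214, limma) with wide separation of the groups. It stayed past the threshold in 4 of 8 fits that each left out 1 array, and missed it without wildtype replicate 1, 2 or 4 or Bapx1 null replicate 3 (adjusted p up to 0.0835). Ptprb, an endothelial phosphatase, had the largest difference in the other direction. It was detected on 1 of 4 Bapx1 null arrays and on 4 of 4 wildtype arrays and differed by -0.99 (adjusted p = 0.151, limma).

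Of the genes that regulate or process the ligands, 17 of 22 were measured, 1 rose and 0 fell, against the same shares of all genes, with a median difference of 0.18. Ccn2, a matrix protein that binds Vegfa, rose by 0.85 (adjusted p = 0.0372, limma), with readings of 10.13, 10.53, 10.27 and 10.58 in Bapx1 null and 9.50, 9.46, 9.43 and 9.73 in wildtype. It missed the threshold without any 1 of the wildtype arrays or without Bapx1 null replicate 3 (adjusted p up to 0.138, limma). Hif1a, the oxygen-regulated factor that induces Vegfa, read 8.25, 5.41, 4.85 and 7.93 in Bapx1 null and 8.52, 8.40, 8.08 and 8.14 in wildtype. Its probe was detected on 2 of 4 Bapx1 null arrays, replicates 2 and 3 being far below the rest, and the difference of -1.67 had an adjusted p of 0.164 with limma. The fifth ligand, Vegfd, also called Figf, read 6.76, 8.19, 7.36 and 4.89 in Bapx1 null and 6.49, 6.02, 6.19 and 5.75 in wildtype. Bapx1 null replicates 1 to 3 were above all wildtype arrays and replicate 4 was below them, for a difference of 0.69 (adjusted p = 0.423, limma).

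Of 15 hypoxia response genes measured out of 19, 0 passed in either direction, against 0.531% higher and 0.256% lower of all genes. Their median difference was 0.18. Ddit4, a stress-induced inhibitor of growth signalling, was higher by 0.63 (adjusted p = 0.0979, limma) without overlap, as were 12.2% of all genes. Pfkfb4, an enzyme that promotes glycolysis, was higher by 0.49 (adjusted p = 0.24, limma). Of the semaphorins, plexins and partners that share the neuropilins, 6 of 15 were measured and 0 passed, against the same shares of all genes. Their median difference was 0.10. Sema3c read 6.23, 4.83, 5.99 and 5.87 in Bapx1 null, detected on 3 of 4 arrays, and 6.85, 6.86, 6.74 and 6.70 in wildtype. All its Bapx1 null values were lower, as for 6.36% of all genes, with a difference of -1.06 (adjusted p = 0.0889, limma). Sema3a, the classic axon repellent that binds Nrp1, differed by -0.18 (adjusted p = 0.635, limma).

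**Figure D5:**
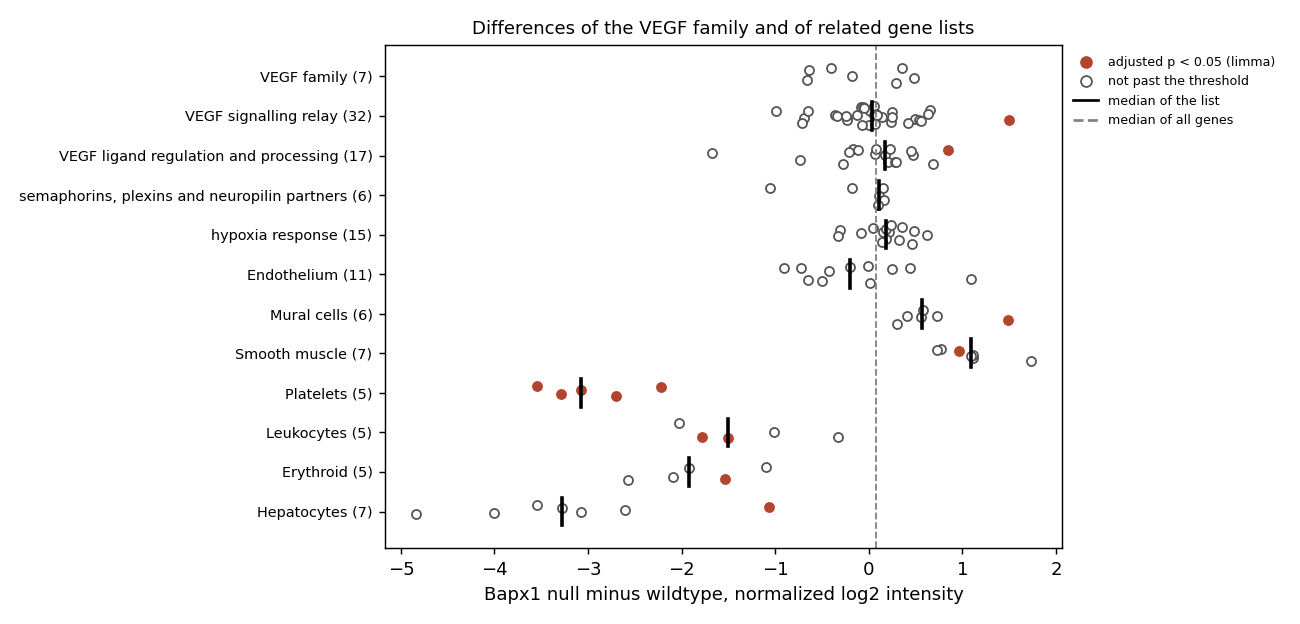
Difference, Bapx1 null minus wildtype in normalized log2 intensity, of each measured gene of the VEGF family, of related gene lists and of cell type marker lists (number measured in parentheses). Filled points passed an adjusted p of 0.05 with limma, vertical bars are list medians and the dashed line is the median of all genes (0.07); hepatocyte (median -3.27) and platelet markers (median -3.08) lie furthest from it.

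Because Flt1, Kdr and Flt4 mark endothelium, the endothelial markers were read beside them. Of 18 markers on the array 11 were measured and 0 passed, against 0.787% of all genes, with a median difference of -0.20. Their summed level on the linear scale was 2085 to 3678 in Bapx1 null and 1993 to 2986 in wildtype, with overlapping ranges. Ramp2 and Egfl7, both with a difference above 0 (0.44 and 0.24), made up 63.2 to 82.4% of this sum, whereas 7 of the 11 markers had a difference below 0. Without this pair, named after its values were seen, the sum was 428 to 948 in Bapx1 null and 609 to 1098 in wildtype. Cdh5, Robo4, Pecam1 and Cd34 (difference 0.02) were each detected on 1 of 4 Bapx1 null arrays and entered the test mainly through wildtype. The count of markers below 0 is therefore a description. Of all genes 57.2% had a difference above 0. The defining marker Cdh5, the cadherin of endothelial junctions, read 5.08, 5.19, 5.79 and 4.89 in Bapx1 null, detected on 1 of 4 arrays, and 5.92, 5.76, 6.13 and 6.75 in wildtype, detected on 4 of 4. It differed by -0.90 (adjusted p = 0.104, limma). Pecam1 was detected on 1 of 4 Bapx1 null and 3 of 4 wildtype arrays (difference -0.01, adjusted p = 0.989, limma), and Tek was detected on all arrays (-0.20, adjusted p = 0.56, limma). Tie1 was detected on none. Eng, a co-receptor of endothelium and some mesenchyme, differed in the other direction, by 1.09 (adjusted p = 0.121, limma). Of 4 lymphatic markers 1 was measured, Pdpn (-0.60, adjusted p = 0.125, limma), and Prox1 was detected on no array. The part of the share of endothelial cells in the Flt1 values was not tested.

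Markers of other cells also differed between the genotypes. All 22 measured markers of platelets, leukocytes, erythroid cells and hepatocytes had a difference below 0. Each was detected on 4 of 4 wildtype arrays, and 18 of the 22 were detected on fewer than 4 Bapx1 null arrays, so these entered the test through the wildtype group and their counts are a description. Of all genes 0.256% passed with a difference below 0, and 57.2% had a difference above 0. Hepatocyte markers had the lowest median difference, -3.27 over 7 genes (Afp, the fetal serum protein, at -4.84 with adjusted p = 0.0787, limma), with a summed level of 254 to 514 in Bapx1 null and 532 to 13250 in wildtype. Of them 1 passed, Tdo2, which was detected on 0 of 4 Bapx1 null arrays. Platelet markers had a median of -3.08 over 5 genes, of which 5 passed (Ppbp, Tubb1, Pf4, Alox12 and Treml1), and a summed level of 240 to 477 in Bapx1 null and 1103 to 5967 in wildtype. Erythroid markers had a median of -1.92 over 5 genes, of which 1 passed (Sptb), and a summed level of 250.2 to 1242 in Bapx1 null and 1499.8 to 3960.2 in wildtype. Leukocyte markers had a median of -1.50 over 5 genes, of which 2 passed (Ctss, detected on 0 of 4 Bapx1 null arrays, and Mpeg1), and a summed level of 239 to 560 in Bapx1 null and 529 to 1063 in wildtype. Of 7 smooth muscle markers 1 rose, against 0.531% of all genes. It was Tagln, detected on 3 of 4 Bapx1 null arrays and 1 of 4 wildtype arrays (0.97, adjusted p = 0.0317, limma). Tagln entered the test mainly through the Bapx1 null group, so the count of 1 is a description. Of the 7, 6 lay higher in Bapx1 null without overlap, Tagln among them, against 12.2% of all genes. The 7 markers had a median difference of 1.09 and a summed level of 35680 to 37856 in Bapx1 null and 10757 to 22086 in wildtype. Each of these calls was lost in at least 2 of the 8 fits that left out 1 array, including the fit without wildtype replicate 1 and the fit without wildtype replicate 4, while the direction held in all of them. Of the gut epithelial (4 measured), mesothelial (2), enteric neural crest (4) and gut mesenchymal (7) markers 0 passed, and the medians were -0.82, -0.62, -0.09 and 0.02. The part of these cell types in the values of the VEGF family was not tested.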

How the data were processed

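Total RNA of 8 samples (4 Bapx1 null, 4 wildtype) was hybridized to Illumina arrays. The authors deposited probe intensity on a linear scale, exported with GenomeStudio (version not given in the sources used here) and not normalized. The deposited detection score followed the signal and was read as 1 minus a detection p. The authors also deposited processed log2 values, centred on array medians and on a baseline per probe whose origin is unknown. Their column medians lay between -0.01 and 0.01, and neither the background subtraction nor the MAD scaling of the methods was found in them. The tables were joined on differences between arrays, and probes were named from the platform annotation.

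Background was removed from the intensities by nec of limma 3.58.1 (normal-exponential model, offset 16, R 4.3.3), log2 transformed and quantile normalized. Probes with a detection p under 0.01 on at least 4 arrays were kept (17440, of which 14901 had 1 gene), and the brightest kept probe stood for a gene. Differences of probes undetected on part of the arrays include values at background. Genotype was the only term (lmFit, eBayes), with Benjamini-Hochberg adjustment over 9784 genes. The number of arrays limits the precision. The procedure was tested on simulated data. The members and gene lists were chosen with earlier results of these data known. The text names all members, of each list up to 4 genes past the threshold and the 2 largest differences, the most similar genes, and Vegfd, Hif1a, Pecam1, Cdh5, Tek and Tie1. For the platelet, leukocyte, erythroid, hepatocyte, epithelial, mesothelial, neural crest, mesenchymal, mural and smooth muscle markers counts are given with selected genes. Alternatives comprised the normalization, background, filter, probe choice, test, covariate and each array left out. Transcript positions of probes were not analysed here.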

Additional observations from a re-analysis of the deposited data

Results flagged for a closer look

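Within the Bapx1 null samples, 2 of the 14 combinations of a measured member and a genotype held an array far from the other 3 by Dixon's criterion for 4 samples at 95%. Pgf in replicate 2 was 4.85, against 5.59 to 5.74 in the other Bapx1 null arrays, with a gap of 0.837 of the range. Flt1 in replicate 3 was 6.36, against 4.65 to 4.82 in the others, with a gap of 0.903 of the range. The first was the array with the fewest detected probes (31.0%), and Pgf was not detected on it. The second was the Bapx1 null array on which Flt1 was detected. Chance sets apart an array in about 1 in 20 groups.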

How the results depend on the processing

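Against 77 genes past the threshold in the fit reported, limma passed 45 with no normalization between arrays (1 higher, 44 lower in Bapx1 null), 0 after MAD scaling, 8 in the processed values (1 higher, 7 lower), 49 with no filter on dim probes and 202 with array weights. The test of the methods passed 2, as did a covariate for the share of detected probes. Leaving out 1 array gave 4 to 1245 genes (1245 without Bapx1 null replicate 4), and 0 to 1 members, the 1 being Nrp1. Of 173 values of the 7 members under alternatives, 163 kept their direction and side of the threshold. Alternatives that changed only the filter, the features tested, the test or the replicate block returned the differences of the fit reported. Their direction was fixed in advance, and the count of 163 is a description. The values that turned were Vegfb (-0.077) and Vegfc (-0.26) without normalization, Vegfc (-0.11) in the processed values, Vegfa (1.77) and Nrp2 (0.66) after MAD scaling, and Nrp2 (0.21) with the covariate. Relative to the median of all genes, Vegfc was 0.20 and 0.14 in the first 2 settings, and Vegfa 0.75 and Nrp2 -0.36 after MAD scaling. The labels do not say whether replicate numbers pair the samples. Deviations of same-numbered arrays correlated at -0.18 to 0.15, and not every array correlated best with its own number. With 4 arrays per genotype this cannot exclude a pairing. A replicate block passed 51 genes (25 higher, 26 lower), and with the covariate 0, turning Vegfb (-0.055), Pgf (0.090) and Nrp2 (0.19). The causes were not tested. Signal near background limited Flt1, Kdr, Flt4 and Pgf, and Pgf and Flt1 gave no value where detection on all 8 arrays was required.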

Other observations

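Mural cells, the pericytes and vascular smooth muscle that wrap vessels and depend on signals from endothelium, had 6 of 7 markers measured. The difference was positive for 6 of 6 (57.2% of all genes), with a median of 0.57 against 0.07 for all genes. Of the 6, 1 gene rose (0.531% of all genes did) and 3 were higher in Bapx1 null without overlap (12.2% of all genes). The gene that rose was Kcnj8, a potassium channel subunit of pericytes, with 8.48, 9.34, 9.12 and 9.01 in Bapx1 null and 7.26, 7.50, 7.55 and 7.67 in wildtype (1.49, adjusted p = 0.0204, limma). It missed the threshold without wildtype replicate 1, 2 or 4 or Bapx1 null replicate 3 (adjusted p up to 0.081, limma). Its channel partner Abcc9 read 8.87, 8.55, 8.84 and 9.49 in Bapx1 null and 8.08, 8.38, 7.99 and 8.37 in wildtype (0.73, adjusted p = 0.104, limma). The summed level of the 6 markers was 2356 to 3209 in Bapx1 null and 1823 to 1887 in wildtype.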
